A study of Mus musculus with 6 samples.

Results

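The lysosome is the acidic compartment in which cells break down proteins, glycans and lipids, and the genes described here encode its soluble enzymes, the proteins of its limiting membrane and one transcription factor that drives them. The set was a fixed list of 37 genes, and every probe set that the array's annotation gives to one of them and to no other gene was taken. There were 81 such probe sets, for 36 of the genes, out of 45101 probe sets for 18193 genes in all. Cd63, which encodes a tetraspanin of late endosomes, had no probe set under its name alone and was not analysed here. The other 36 genes were all bright enough to be tested.

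The 6 arrays came from mouse E14 embryonic stem cells of the 129P2/OlaHsd background (line Msgn1RepV) that carry a Venus reporter of Msgn1, a transcription factor gene of the presomitic mesoderm. All cultures were monolayers on gelatin in medium with 15% fetal bovine serum, 0.5% DMSO, 10 ng/mL R-spondin3, which potentiates Wnt signalling, and 200 ng/mL Noggin, which blocks BMP ligands. Venus-positive cells were sorted at day 3 or at day 4, with 3 biological replicates of each day, so the comparison asks how lysosomal gene expression differed between successive days within one reporter gate of one cell line. No unsorted or untreated cells are among the samples, and both days share every agent. RNA was extracted with either of 2 kits, Trizol or an RNeasy kit, with no label tying either to a sample.

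Lysosomal enzymes are made in the endoplasmic reticulum, tagged with mannose 6-phosphate and carried to the lysosome by mannose 6-phosphate receptors, where a proton pump, the V-ATPase, keeps the lumen acidic. Many of these genes share a short promoter element, the CLEAR motif, to which TFEB and its relatives bind. Lysosomal membrane glycoproteins such as LAMP1 and LAMP2 line the inner face of the membrane and shield it from the enzymes.

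Defining genes of the labelled cells were present on both days. All 10 presomitic markers lay above the filter level, a signal of 13.5, and their summed signal was 3466 to 3682 at day 3 and 5479 to 5711 at day 4. Of the 10, 3 were called higher and 1 lower, and the lower one was Msgn1, the gene of the reporter itself (74.6 ± 15.0 and 33.2 ± 7.06, SD, n = 3 arrays per day; log2 change -1.17, adjusted p = 0.00723). Most of the rise of the sum came from Rspo3 (means of 1275 at day 3 and 2695 at day 4). Pcdh8 (288 and 579) and Mesp2 (96.3 and 301) were the others called higher. Signals are MAS5 intensities on a linear scale, and each gene is represented by its brightest probe set. Of 12 markers of myeloid cells, which are rich in lysosomes, 9 lay under the filter level, among them Ptprc, Lyz2, Tyrobp and C1qa, and the summed signal was 137 to 177 at day 3 and 122 to 136 at day 4. Of 17 markers of visceral and parietal endoderm, also rich in lysosomes, 11 lay above the filter level and Afp, Ttr, Apoa1, Apoa4, Cubn and Sox7 did not. Of these 11, 5 were called lower and 1 higher, and the sum of all 17 went from 1024 to 1055 at day 3 to between 729.8 and 778 at day 4. The 5 called lower were Gata6 (means of 394 and 202), Cldn6 (119 and 52.3), Foxa2 (51.5 and 25.5), Sox17 (72.2 and 20.2) and Apob (log2 change -1.31). The 9 stem cell markers summed to 10128 to 10388 and then to 7252 to 7442. Of the 8 above the filter level, 5 were called lower and 0 higher. Most of the sum came from Tdgf1 (means of 6279 at day 3 and 5310 at day 4, log2 change -0.24). Pou5f1 went from a mean of 622 to 165 (-1.91) and Nanog from 221 to 73.6 (-1.63). The part of these shifts in the lysosomal values was not tested, and in sorted pools fewer cells of a type cannot be told apart from less RNA per cell. One array stood apart: the 3′ to 5′ ratio of the Gapdh control probe sets was 14.0 on day 4 replicate 1 and 2.43 to 3.19 elsewhere, and that of the Actb control probe sets was 6.71 there and 2.77 to 3.84 elsewhere. Counts are therefore also given without it.

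The lysosomal genes did not move as a block between day 3 and day 4. Of the 36 tested, 5 rose and 2 fell (limma, adjusted p under 0.05). Arsa, Scarb2, Hexa, Lamp2 and Npc1 were higher at day 4, and Lamp1 and Ctsc were lower. The share called was 19.4%, against 22.2% of the 12285 genes tested (11.5% higher and 10.7% lower), so the number of calls was close to that of genes at large. Every change was below 2-fold. The range ran from -0.49 (Lamp1) to 0.73 (Arsa) on the log2 scale, whereas 5.33% of all genes tested changed by 2-fold or more. The median change was 0.18 for the lysosomal genes and -0.01 for all genes, and 25 of 36 changes were above 0 (69.4%, against 48.7% of all genes). The values of the days did not overlap for 16 of the 36 genes, or 44.4%, against 41.4% of all genes. Without day 4 replicate 1, 6 were higher and 4 lower, or 27.8% against 28.7% of all genes; the 7 calls above were among them, joined by Psap (higher) and by Cln3 and Arsb (lower).

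**Figure D1:**
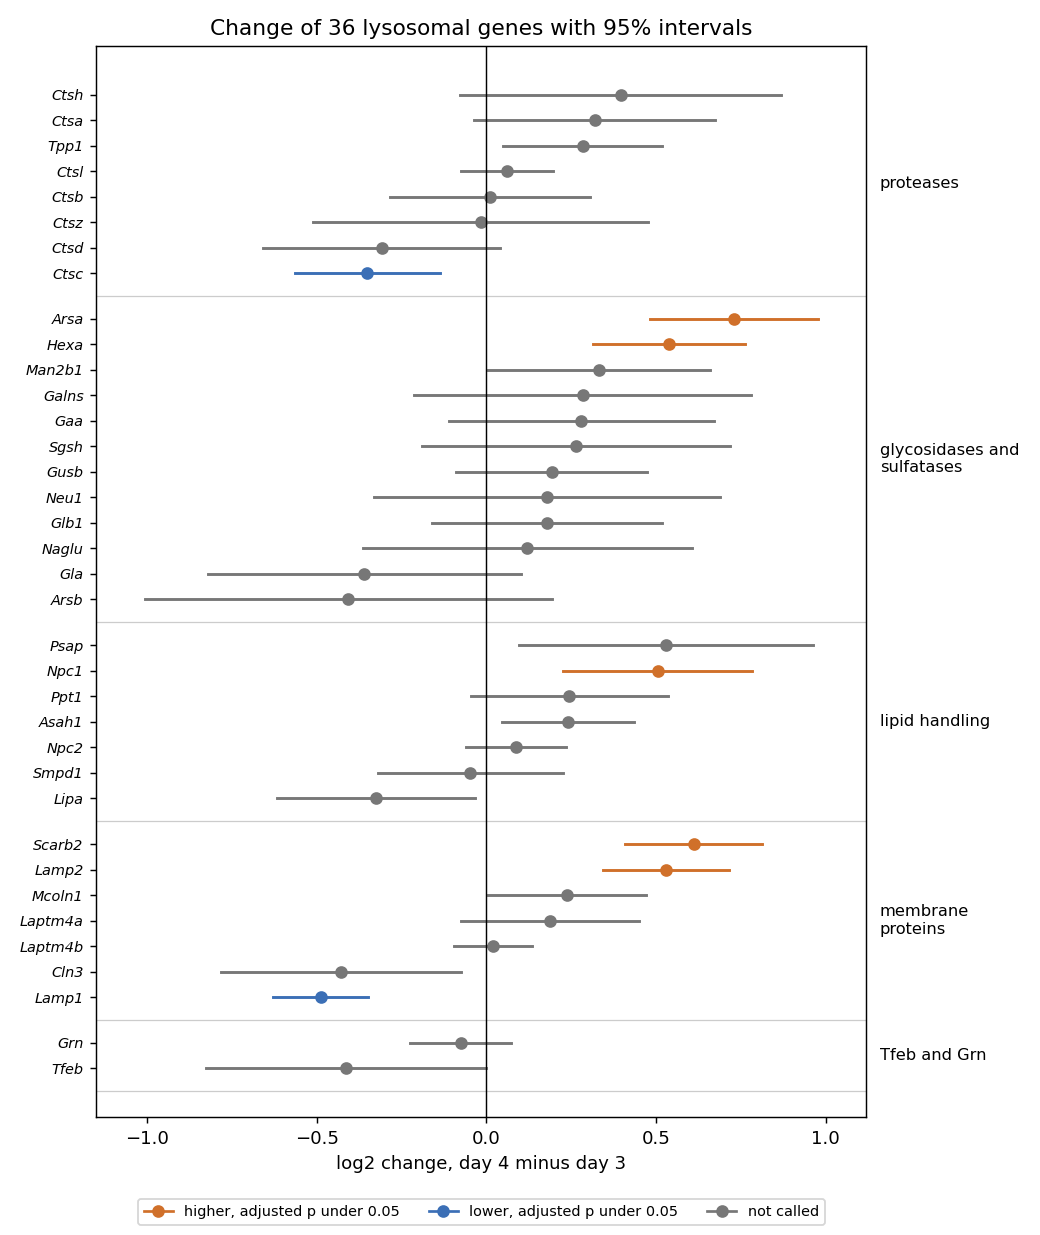
Log2 change from day 3 to day 4 (x axis) of 36 lysosomal genes, grouped by role, with 95% intervals from the limma fit (n = 3 arrays per day). The 5 genes called higher and the 2 called lower are coloured, and the points lie between -0.49 and 0.73.

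Members of the limiting membrane held the smallest adjusted p of the set. Of the 7 membrane genes tested, 2 rose and 1 fell (42.9% called, against 22.2% of all genes). An unadjusted p under 0.05 was found for 5 of the 7 (71.4%, against 35.9% of all genes). Lamp1, one of the major glycoproteins of the lysosomal membrane, gave signals of 2808, 2858 and 2753 at day 3 and of 2057, 2029 and 1917 at day 4. The highest day 4 array was well under the lowest day 3 array, and the fall of 0.49 ± 0.06 (log2, SE, as for all changes that follow; 1.40-fold, adjusted p = 0.000758) was called in every fit that left out an array. Lamp2, its close relative and the receptor of chaperone-mediated autophagy in one of its splice forms, gave 1349.8, 1349 and 1235 at day 3 and 1733, 2033 and 1920.4 at day 4. All day 4 arrays were above all day 3 arrays, a rise of 0.53 ± 0.08 (1.44-fold, adjusted p = 0.00208). The change of Lamp2 exceeded that of Lamp1 by 1.02 on the log2 scale. An exact 2-sided permutation test gave p = 0.1, the smallest it can give with 3 arrays per day. This outcome followed from the values above, since neither gene overlapped between the days and they moved in opposite directions. The test therefore adds nothing to them.

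Lamp2 was read by 4 probe sets, and they did not move alike. A second one rose as well, from 614, 593 and 635 to 774.5, 1069 and 1069 (0.65, adjusted p = 0.00982 when every probe set was tested on its own). The other 2 did not pass, with 192, 224 and 197 against 232, 209 and 195 for one (change 0.05, adjusted p = 0.806) and 68.8, 84.6 and 87.9 against 72.7, 86.0 and 101.5 for the other (change 0.10, adjusted p = 0.73). Which splice forms each probe set reads was not analysed here. Lamp1 had a single probe set.

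Scarb2, which encodes LIMP-2, the receptor that carries glucocerebrosidase to the lysosome, rose from 452, 467 and 438 to 741, 682 and 651. The groups were well apart (0.61 ± 0.09, 1.53-fold, adjusted p = 0.00158). Its second probe set, with 112, 123 and 133 at day 3 and 106, 124 and 113 at day 4, showed no such separation (change -0.10, adjusted p = 0.655), and the call was lost with the mean of both (0.25, adjusted p = 0.088). Of the other membrane genes, the calcium channel gene Mcoln1 gave 203, 193 and 209 at day 3 and 225, 245 and 243 at day 4, which do not overlap, but did not pass (0.24 ± 0.10, adjusted p = 0.134). Cln3, mutated in juvenile Batten disease, gave 135, 177 and 191 and then 136, 109.7 and 126 (-0.43 ± 0.16, adjusted p = 0.0809, and 0.0378 without day 4 replicate 1 and 0.0348 without day 3 replicate 1). Its second probe set, with 70.0, 66.7 and 82.8 and then 77.2, 63.2 and 70.2, overlapped between the days (-0.06, adjusted p = 0.839 when tested on its own). Laptm4a and Laptm4b, small transmembrane proteins of endosomes and lysosomes, changed by 0.19 and 0.02 without passing. For Laptm4b the 95% interval of the change ran from -0.09 to 0.14.

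**Figure D2:**
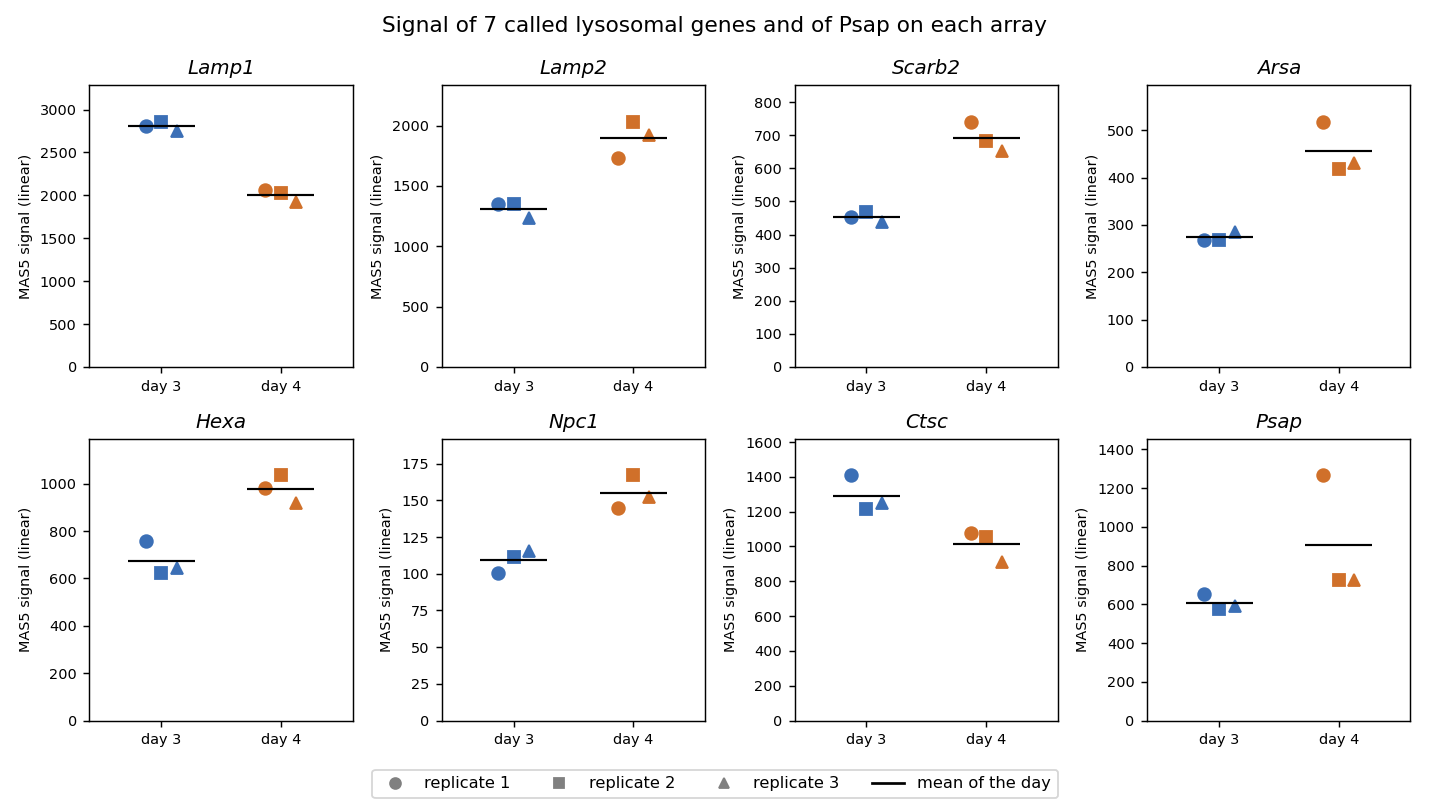
MAS5 signal on each array (y axis, linear, from 0) of the 7 lysosomal genes called between the days and of Psap, at day 3 (blue) and day 4 (orange), with a mark for each replicate and a line at the mean of the day. In each of the 8 panels the days do not overlap, and the Psap value of day 4 replicate 1 (1267) stands above the other day 4 arrays (both 727).

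Arsa and Lamp1 were the called genes with the core of the CLEAR motif in their promoters. Promoter windows of 300 bases (250 before and 50 after the start) from RefSeq on GRCm38.p6 were searched for CACGTG, for TCACGTG, which contains it, and for the full CLEAR palindrome of 10 bases, which contains both, each on both strands. The table held windows for 31 of the 37 genes, and Npc1, Asah1, Laptm4b, Ctsh, Ctsb and Galns were not in it. CACGTG was present for 12 of the 31 genes (38.7%, against 8.09% of all 27025 genes in the table), TCACGTG for 11 (35.5%, against 4.29%) and the palindrome for 1, Cln3 (3.23%, against 0.37%). Among genes tested on the arrays the shares were 11.8%, 7.0% and 0.806%. The 160 bases before the start are printed for Lamp1, which fell and has 4 copies, for Arsa, which rose and has 1, for Lamp2, which rose and has none, and for Cln3, which has the palindrome. Each runs 5′ to 3′ up to the base before the start, and capitals mark CACGTG. The windows are chr8:13159001-13159160 (+ strand), chr15:89477425-89477584 (- strand), chrX:38456461-38456620 (- strand) and chr7:126583237-126583396 (- strand, one of 2 starts listed for the gene).
Lamp1: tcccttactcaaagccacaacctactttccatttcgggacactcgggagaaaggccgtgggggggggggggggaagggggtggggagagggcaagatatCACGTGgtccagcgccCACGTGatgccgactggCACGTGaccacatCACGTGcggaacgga
Arsa: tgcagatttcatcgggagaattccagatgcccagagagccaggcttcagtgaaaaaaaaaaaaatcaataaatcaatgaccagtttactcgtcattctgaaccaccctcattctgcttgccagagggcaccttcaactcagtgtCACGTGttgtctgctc
Lamp2: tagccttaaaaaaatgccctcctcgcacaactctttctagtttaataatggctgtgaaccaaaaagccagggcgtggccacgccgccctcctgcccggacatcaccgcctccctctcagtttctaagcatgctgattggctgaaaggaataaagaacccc
Cln3: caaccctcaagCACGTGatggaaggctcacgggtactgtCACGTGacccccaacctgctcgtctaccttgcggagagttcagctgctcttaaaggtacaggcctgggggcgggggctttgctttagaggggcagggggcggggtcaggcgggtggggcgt
In Lamp1 the 4 copies begin between 61 and 15 bases before the start, in Arsa the copy begins 16 bases before it, and in Cln3 the copies begin 149 and 121 bases before it. The 11 tested genes with TCACGTG were Arsa, Cln3, Ctsa, Ctsd, Gaa, Gla, Glb1, Lamp1, Mcoln1, Naglu and Sgsh. Of these, 1 rose and 1 fell, with a median change of 0.18 and a range of -0.49 to 0.73. Of the 19 tested genes whose windows lack it, 3 rose and 1 fell, with a median of 0.18 and a range of -0.41 to 0.61. The medians were thus about equal, and the match describes letters in a window, not binding.

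Tfeb, the factor that binds this motif, gave signals of 58.8, 72.6 and 56.5 at day 3 and 53.1, 46.3 and 41.4 at day 4. Every day 4 array was below every day 3 array, but the change did not pass (-0.41 ± 0.18, 95% interval -0.83 to -0.00082, adjusted p = 0.138). Grn, which encodes the progranulin precursor, had 3 probe sets above the filter, and its brightest was at 2909 ± 124 (here and for later means, mean ± SD of the 3 arrays of a day) and 2762 ± 138 (-0.08 ± 0.07, adjusted p = 0.45).

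Glycosidases and sulfatases, which take sugar chains apart step by step, rose in 2 of 12 genes and fell in 0. The share called was 16.7%, against 22.2% of all genes tested. An unadjusted p under 0.05 was found for 3 of the 12 (25%, against 35.9% of all genes tested). Arsa, the sulfatase that degrades sulfatide, rose from 269, 268 and 285 to 518, 418 and 432. The day 3 arrays lay close together, and day 4 replicate 1 was the highest (0.73 ± 0.11, 1.66-fold, adjusted p = 0.00183, and 0.63 without that array, adjusted p = 0.000558). Hexa, the alpha subunit of beta-hexosaminidase, which degrades GM2 ganglioside, rose from 758, 623 and 643 to 982, 1035 and 917. The lowest day 4 array was above the highest day 3 array (0.54 ± 0.10, 1.45-fold, adjusted p = 0.00484).

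The remaining 10 genes of this role did not pass. Changes above 0 without a call were seen for Man2b1 (a lysosomal alpha-mannosidase), Gaa (acid alpha-glucosidase, which degrades glycogen), Galns and Sgsh (sulfatases of keratan and heparan sulfate), Gusb (beta-glucuronidase), Glb1 (beta-galactosidase), Neu1 (sialidase) and Naglu (an enzyme of heparan sulfate breakdown), from 0.12 for Naglu to 0.33 for Man2b1. Without day 4 replicate 1 the change of Man2b1 was 0.16, that of Gusb 0.12 and that of Glb1 0.32, none of them called. Man2b1 and Sgsh did not overlap between the days. Gla (alpha-galactosidase) and Arsb (the sulfatase of dermatan sulfate) lay below 0, at -0.36 ± 0.21 and -0.41 ± 0.27. Arsb gave 50.2 on day 4 replicate 1 and 31.3 and 24.9 on the other day 4 arrays, against 45.3, 44.7 and 45.0 at day 3. Without that array its change was -0.69 (adjusted p = 0.047). A second Arsb probe set above the filter overlapped between the days (0.0075, adjusted p = 0.99 when tested on its own). Gla gave 127 on day 4 replicate 3 and 80.1 and 71.3 on the others, and without replicate 3 its change was -0.61 (adjusted p = 0.0261). Arsb, Sgsh, Galns, Neu1 and Naglu were dim, with a mean signal under 50 on both days.

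Among genes of lipid breakdown and cholesterol export, 1 of 7 rose and 0 fell (14.3% called, against 22.2% of all genes). An unadjusted p under 0.05 was found for 4 of the 7 (57.1%, against 35.9% of all genes). Npc1, the membrane protein that moves cholesterol out of the lysosome, rose from 100.4, 111 and 115 to 145, 167 and 152. The days were apart (0.50 ± 0.12, 1.42-fold, adjusted p = 0.0178), but leaving out any one of 3 arrays ended the call: the adjusted p was 0.0596 without replicate 1 of day 3, 0.0525 without replicate 2 of day 3 and 0.0726 without replicate 2 of day 4. Npc2, the soluble protein that hands cholesterol to NPC1, gave 4599 ± 369 and 4875 ± 23.6 in its brightest probe set (0.09 ± 0.07, adjusted p = 0.375). A second Npc2 probe set went from 3607.5, 3269.6 and 3289 to 3948, 4332 and 4293 and passed when probe sets were tested one by one (0.31, adjusted p = 0.0152), as did the gene with the mean over its probe sets (0.48, adjusted p = 0.00525).

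Psap, the precursor of the saposins that help enzymes reach their lipid substrates, depended on one array. At day 3 it read 652, 577 and 592, and at day 4 it read 1267, 727 and 727. All day 4 arrays were higher, with replicate 1 far above the others, and the change of 0.53 ± 0.19 did not pass (adjusted p = 0.0785); without that array it was 0.26 and passed (adjusted p = 0.0341). Its dimmer probe set gave 65.2, 63.7 and 55.9 and then 62.4, 45.1 and 52.5, a change of -0.22 that did not pass (adjusted p = 0.45). Asah1, the acid ceramidase, gave 481, 484 and 520.5 and then 586, 567 and 602, which do not overlap, without passing (0.24 ± 0.09, adjusted p = 0.0761). Lipa, the acid lipase that frees cholesterol from its esters, was lower on every day 4 array without passing (-0.33 ± 0.13, adjusted p = 0.103). Ppt1, which removes palmitate from proteins, and Smpd1, the acid sphingomyelinase, changed by 0.24 ± 0.13 and -0.05 ± 0.12 (adjusted p = 0.206 and 0.815).

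Of the 8 proteases, 1 fell and 0 rose (12.5% called, against 22.2% of all genes). An unadjusted p under 0.05 was found for 2 of the 8 (25%, against 35.9% of all genes). Ctsc, the dipeptidyl peptidase that activates serine proteases of immune cells, fell from 1409, 1217 and 1252 to 1079, 1055 and 909. The days did not overlap (-0.35 ± 0.10, 1.28-fold, adjusted p = 0.027). The gene was not called in 5 of 6 leave-one-out fits (all but the one without day 4 replicate 1, adjusted p up to 0.094), with a variance that did not follow the signal (adjusted p = 0.0849) and with its probe sets averaged (-0.67, adjusted p = 0.0822).

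The other cathepsins gave no call in either direction. Ctsd, the main aspartic protease, gave 456, 374 and 394 and then 258, 359 and 382. The lowest value was that of day 4 replicate 1, and the change was -0.31 ± 0.16 (adjusted p = 0.186), or -0.13 without that array. Ctsb, a cysteine protease with 5 probe sets above the filter, gave 803, 655 and 718 and then 600.5, 807 and 797 in the brightest (0.01 ± 0.13, adjusted p = 0.966). Ctsl, another cysteine protease, stayed at 3455 ± 130 and 3605 ± 135, with a 95% interval of the change from -0.07 to 0.20. Ctsa (the carboxypeptidase that also protects beta-galactosidase and sialidase), Ctsh and Ctsz (exopeptidases) changed by 0.32, 0.40 and -0.02, none of which passed. One array moved Ctsa in either direction: its change was 0.17 without day 4 replicate 1 (adjusted p = 0.354) and 0.49 without day 4 replicate 3 (adjusted p = 0.0403). A second Ctsa probe set above the filter was at -0.42 (adjusted p = 0.293 when tested on its own). Tpp1, a tripeptidyl peptidase, gave 709.5, 566 and 631 and then 827, 733.5 and 754.5, which do not overlap (0.28 ± 0.10, adjusted p = 0.0805, and 0.0492 without day 3 replicate 1). Its second probe set rose from 105, 119 and 99.7 to 152, 177 and 176 when tested on its own (0.64, adjusted p = 0.0121), and the mean over both passed (0.46, adjusted p = 0.00816).

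The precision was enough to bound most of the changes. For 35 of the 36 genes the 95% interval lay within a 2-fold change in either direction (97.2%, against 75.5% of all genes tested), and Arsb was the exception. For 10 genes it lay within 0.5 on the log2 scale (27.8%, against 32.6%). A miss of the threshold therefore bounds a change and does not show that there was none.

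Probe sets of one gene did not always move together. Of the 81 probe sets, 68 lay above the filter; 10 of these were called when each was tested on its own (8 higher, 2 lower), or 14.7% against 17.7% of the 27026 probe sets tested. For 20 genes more than 1 probe set lay above the filter. In 11 of the 20 all pointed the same way, and 22 of the 32 further probe sets pointed the way of the brightest. Of the called genes, only Lamp2 and Scarb2 had further probe sets above the filter. None of those was called in the opposite direction, and the other called genes had no further probe set that could be tested.

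**Figure D3:**
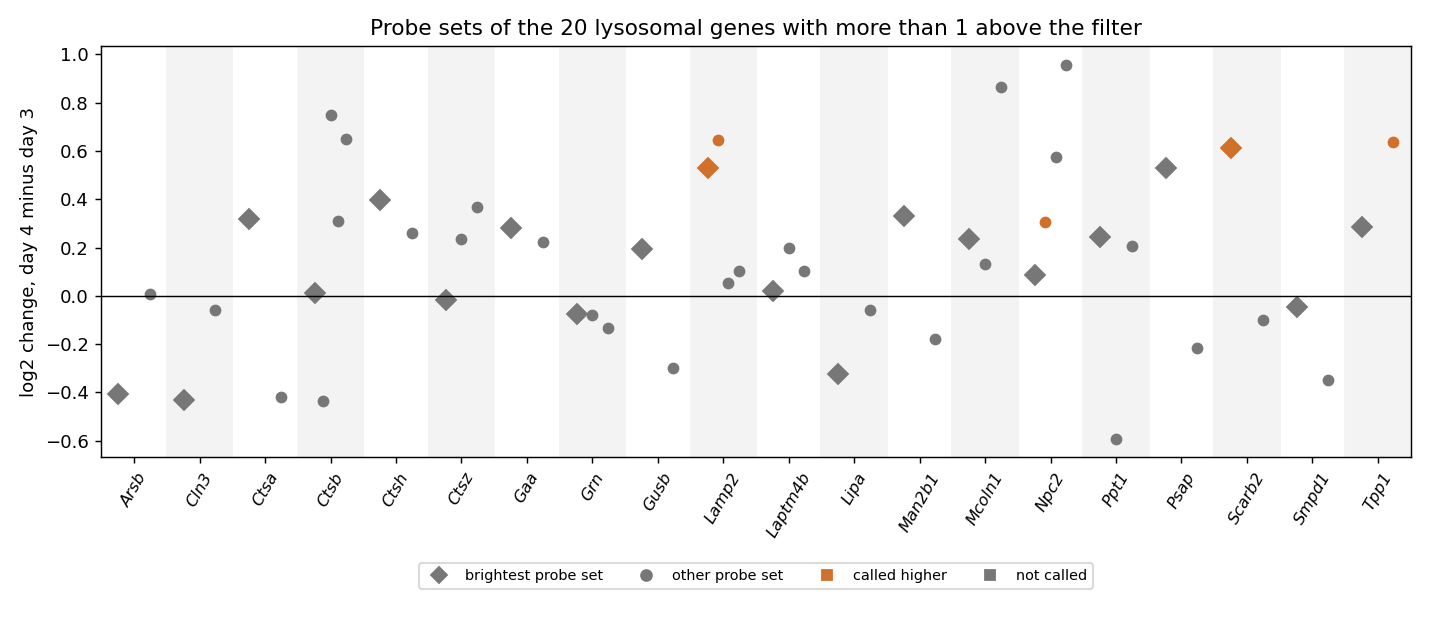
Log2 change (y axis) of each probe set above the filter for the 20 lysosomal genes that have more than 1, with the brightest probe set as a diamond and the others as circles, orange where called higher with every probe set tested on its own. Opposite signs are seen for Psap (0.53 and -0.22) and Scarb2 (0.61 and -0.10), while Npc2 and Tpp1 each have a further probe set that was called higher.

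Genes around the lysosome were read from 7 further lists. Of all genes tested, 22.2% were called with all arrays and 28.7% without day 4 replicate 1. Other lysosomal hydrolases and their cofactors were called higher in 3 of 18 tested genes and lower in 1 (22.2%, as for all genes; median change 0.24). Ctso, a cysteine protease, rose from 29.7 ± 3.56 to 57.6 ± 8.65 (0.95 ± 0.21, adjusted p = 0.00988, but 0.0616 with its probe sets averaged). Hgsnat and Ids, of heparan sulfate breakdown, and the dipeptidyl peptidase gene Dpp7 were called at 0.35, -0.31 and 0.49 (adjusted p = 0.0434, 0.0424 and 0.0468). These calls were not made by 5, 4 and 5 of the 6 leave-one-out fits. Dpp7 was at -0.55 without probe sets that may read several transcripts. The count of higher hydrolases was 1 without any one day 3 array or day 4 replicate 3, and that of lower ones was 0 with any of day 3 replicates 1 and 3 and day 4 replicates 2 and 3 left out. With all arrays, 1 hydrolase was higher under quantile normalization, median centring, no filter, averaged probe sets or every probe set on its own, and 0 were lower under quantile normalization, averaged probe sets or eBayes without trend. Other membrane proteins and transporters were called higher in 0 and lower in 1 of 16 (6.25%, against 22.2% of all genes). Without day 4 replicate 1 the counts were 1 and 1. The call with all arrays was Ostm1, the partner of the chloride transporter ClC-7. It fell from 356 ± 9.60 to 252 ± 9.20 (-0.50 ± 0.10, adjusted p = 0.00553). Tmem175, a lysosomal ion channel, Slc17a5, the sialic acid exporter, and Ctns, the cystine exporter, changed by 0.70, 0.32 and 0.49 without passing (adjusted p = 0.0512, 0.197 and 0.227).

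Subunits of the V-ATPase were called lower in 4 of 17 tested genes and higher in 0 (23.5%, against 22.2% of all genes). The median change was -0.22. Without day 4 replicate 1, 5 were lower and 1 higher, with 28.7% of all genes called. Atp6v0e, of the membrane sector, fell from 1147 ± 114 to 815 ± 27.2 (-0.49 ± 0.09, adjusted p = 0.00486). Atp6v0b, Atp6v1f and Atp6v0d1 fell by 0.36, 0.34 and 0.30 (adjusted p = 0.0212, 0.0271 and 0.0318), and 3, 3 and 5 of the leave-one-out fits did not call them. The count of lower subunits was 1 without day 3 replicate 1 or 3 and 2 without day 3 replicate 2 or day 4 replicate 3. It was 1 with eBayes without trend and 2 without probe sets that may read several transcripts.

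Genes that sort proteins to the lysosome were called higher in 5 of 21 and lower in 2 (33.3%, against 22.2% of all genes). The median change was 0.03. Without day 4 replicate 1 the counts were 6 and 2, with 28.7% of all genes called. Vps16, of the tethering complexes that fuse vesicles with the lysosome, rose from 260.2 ± 26.2 to 503 ± 50.1 (0.95 ± 0.12, adjusted p = 0.000664), and Vps39, of the same machinery, rose by 0.67 ± 0.14 (adjusted p = 0.00907, but 0.164 with its probe sets averaged). Igf2r, the larger mannose 6-phosphate receptor, rose from 692 ± 65.7 to 1111 ± 28.04 (0.69 ± 0.09, adjusted p = 0.00084). Cln6, of enzyme export from the endoplasmic reticulum, was called at 0.71 (adjusted p = 0.0164), which 3 of the leave-one-out fits did not call. The count of higher genes was 3 without day 3 replicate 1, day 3 replicate 2 or day 4 replicate 2, and that of lower genes was 0 without any one day 3 array or day 4 replicate 2. With averaged probe sets 3 were higher and 1 lower, and with eBayes without trend 0 were lower.

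Relatives of Tfeb and genes of mTORC1 control at the lysosome were called higher in 2 of 19 and lower in 2. The share was 21.1%, against 22.2% of all genes. Without day 4 replicate 1 the counts were 1 and 2, with 28.7% of all genes called. Rragd, a Rag GTPase, fell from 888 ± 28.8 to 654 ± 31.4 (-0.44 ± 0.08, adjusted p = 0.00485), but the mean over its probe sets was 0.10. Lamtor2 and Lamtor1, of the Ragulator scaffold, were called in opposite directions (0.48 and -0.39, adjusted p = 0.0177 and 0.027) and Tsc1, a brake on mTORC1, at 0.46 (adjusted p = 0.0492), calls that 2, 4 and 5 of the leave-one-out fits did not make. The count of higher genes was 1 without day 3 replicate 1 or day 4 replicate 1 or 2 and 0 without day 3 replicate 2 or 3, and that of lower genes was 1 with any of day 3 replicates 1 and 3 and day 4 replicates 2 and 3 left out. With averaged probe sets 0 were higher and 1 lower.

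Autophagy genes were called higher in 5 of 24 and lower in 0 (20.8%, against 22.2% of all genes, median change 0.02). Without day 4 replicate 1 the counts were 5 and 2, with 28.7% of all genes called. Wipi1, which binds the membrane of forming autophagosomes, rose from 93.9 ± 3.08 to 238 ± 25.03 (1.34 ± 0.12, adjusted p = 0.000137, but 0.196 without probe sets that may read several transcripts and 0.0875 when its probe sets were averaged). Nbr1, a cargo receptor, rose from 1461 ± 16.8 to 2094 ± 26.2 (0.52 ± 0.06, adjusted p = 0.00059, and 0.256 when these were averaged). The conjugation genes Atg4b and Atg12 were called at 0.55 and 0.43 (adjusted p = 0.023 and 0.0237), calls that 2 and 3 of the leave-one-out fits did not make, nor did averaging their probe sets (0.11 and 0.05). The count of higher genes was 2 without day 3 replicate 2 and 3 without day 3 replicate 3, day 4 replicate 2 or day 4 replicate 3, and 1 was lower without day 4 replicate 3. With all arrays, 0 autophagy genes were called higher with averaged probe sets, 1 without probe sets that may read several transcripts and 2 with eBayes without trend. Of 3 tested inhibitors of cathepsins and related proteases, 1 was called higher and 1 lower (66.7%, against 22.2% of all genes). Without day 4 replicate 1 the counts were 1 and 1, with 28.7% of all genes called. Serpinb6a fell from 979 ± 78.5 to 632 ± 6.51 (-0.63 ± 0.09, adjusted p = 0.00115). Cst3, which encodes cystatin C, was called at 0.30 (adjusted p = 0.0482, and not without any one of day 3 replicates 2 and 3 and day 4 replicates 2 and 3), and Cstb was at -0.20 (adjusted p = 0.0637). With median centring or averaged probe sets 0 inhibitors were higher and 2 lower.

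**Figure D4:**
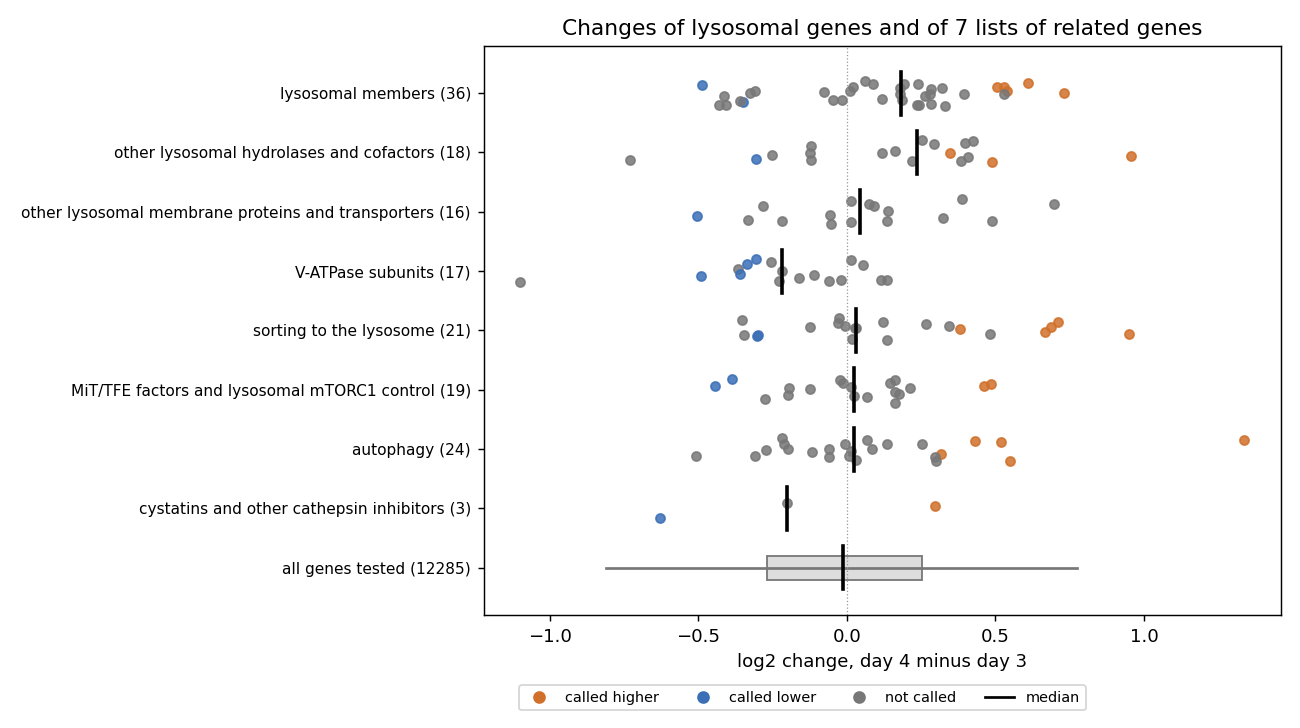
Log2 change (x axis) of the 36 lysosomal genes and of 7 lists of related genes, 1 point per tested gene (number in brackets), orange where called higher and blue where called lower, with the median as a black bar; the box and line for all genes tested span the middle 50% and 90%. Medians run from -0.22 (V-ATPase subunits) to 0.24 (other lysosomal hydrolases). The box for all genes spans -0.27 to 0.25 and shows the spread of single genes, so it does not measure how far the median of a list varies.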

How the data were processed

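MAS5 is the tool named for these arrays, per the submitters' processing notes. The tables, as deposited, hold linear signal intensities for 45101 probe sets on 6 arrays (3 per day), after a 2-cycle amplification per the labels' protocols. The MAS5 version and scaling target are not given, nor are detection calls. The 2% trimmed means ran from 160.4 to 162, so no further scaling was applied, and the number of arrays limits the precision.

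Probe sets were named from the platform annotation. It lists 1 symbol for 34958 of them and several for 932, which stayed unnamed, and leaves out 9211; 34754 matched RefSeq by Entrez identifier. In R 4.3.3 with limma 3.58.1, log2 signals of the brightest probe set of each gene were fitted with day as the only term (lmFit, eBayes with trend, 2-sided). The test took in the 12285 genes with a mean above 13.5, the signal at percentile 40 over the whole array, with Benjamini-Hochberg adjustment over all of them at 0.05; the script was tested on simulated data. Changes are day 4 minus day 3. No set test was run. The labels call the replicates biological without naming separate cultures, so p-values measure the spread between these samples.

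The members and lists were chosen with earlier results of these data known. All members were described; genes called, with Tfeb, Lamp1, Lamp2, Ctsd, Ctsb and Psap, were given array by array, and up to 4 genes of each further list with the smallest p were named. Array-by-array values of other members were added after their values had been seen.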

Additional observations from a re-analysis of the deposited data

How the results depend on the processing

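Of the 7 called genes, Lamp1, Lamp2, Hexa and Arsa were called in every fit that gave them a value (Lamp1 and Hexa give none without suffixed probe sets), Scarb2 in all but the mean over probe sets, and Npc1 and Ctsc in those not named in the report. Across 82 values of these genes under other settings 3 lost the call and 0 changed sign. Changing the filter, trend or threshold, adding the replicate block or testing every probe set kept the estimate, so no sign could change there. A threshold of 0.10 cannot lose a call. Across 42 fits without an array 8 lost the call. Counts that moved were 1 lower gene with the mean over probe sets, without probe sets of the suffixes _x_at, _s_at and _a_at (which removes Lamp1), and with eBayes without trend; 10 higher and 6 lower with array weights; and 8 higher at an adjusted p of 0.10. All genes called numbered 1796 with the mean over probe sets and 4312 with array weights, against 2729. The median change of the lysosomal genes was 0.14 with quantile normalization. Leaving out each array gave 4 to 6 higher and 1 to 4 lower genes (4 without day 4 replicate 1; 1 without day 3 replicate 2 or 3 or day 4 replicate 2), 1582 to 3530 genes called in all (fewest with day 3 replicate 3 left out, then 1808 with day 3 replicate 2 left out), and a median of 0.13 to 0.18. The replicate block gave 7 higher (Psap and Tpp1 added), 2 lower and 2884 in all. Deviations of same-numbered arrays correlated at 0.067, 0.011 and -0.00051, and those of differently numbered arrays at -0.065 to 0.070. With so few arrays these values cannot show whether same-numbered samples shared a culture, and the main fit did not pair them.

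Signs changed for genes that were not called: with the mean over probe sets Gusb (-0.054), Sgsh (-0.34), Galns (-0.28), Lipa (5.3e-05), Ctsa (-0.050), Ctsz (0.20) and the called Rragd (0.10); with arrays centred on the median Laptm4b (-0.012) and Ctsb (-0.022); without suffixed probe sets Man2b1 (-0.18) and the called Dpp7 (-0.55); and with array weights Ctsz (0.29). Without one array Ctsb ran from -0.064 to 0.15, Ctsz from -0.21 to 0.22 and Smpd1 from -0.10 to 0.0033. The cause was not tested, except that the mean over probe sets includes dim ones. Dim signals limit Arsb, Sgsh, Galns, Neu1, Naglu and Ctsh. Counts in the related lists moved under several settings, and many of these counts stand beside the lists.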

Other observations

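Day 4 replicate 1, the array with the high 3′ to 5′ control ratios, was the farthest from the median of its day for 19 of the 36 lysosomal genes (52.8%), close to its 53.9% of all genes tested; day 3 replicate 1 was the farthest of its day for as many (52.8%, against 43.6% of all genes). Both Psap probe sets read highest there among the day 4 arrays, the brightest 1267 against 727 on both others and the dimmer one 62.4 against 45.1 and 52.5. The Ctsb probe sets departed in both directions. One read 27.8 there, while the rest of day 4 gave 126 and 136.5 and day 3 gave 102 to 109. The brightest was low there as well (600.5 against 807 and 797), as was a dim one (14.7 against 36.3 and 37.1). The others read higher there, at 48.2 against 31.3 and 42.8 and at 46.3 against 29.4 and 27.9. The part of the control ratios in these values was not tested.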
